A study of Mus musculus with 6 samples.

Results

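The 34 genes described here encode proteins of mitosis and the spindle: the cyclins and phosphatases around CDK1, the mitotic kinases, the spindle checkpoint, the kinetochore, spindle motors and cytokinesis proteins, the factors of anaphase onset, and the proliferation genes Mki67, Top2a and Foxm1. They are a list of names with a shared function, no measured value is part of the rule for membership, and all 34 were among the 36047 genes with a value and the 13451 genes tested. RNA-seq of polyA RNA was made from MLE-12 cells, 3 libraries after cigarette smoke extract (CSE) and 3 after PBS. MLE-12, labelled as wild type, is a mouse lung epithelial line derived from a lung tumour of a mouse that carried a viral large T antigen under the human surfactant protein C promoter, and large T binds the RB and p53 proteins that otherwise hold back the cell cycle, so the baseline division of the line is that of an immortalised cell. CSE, a solution of smoke constituents, was added at 5% (optical density 2) to cultures at 30% density in medium with 2% serum, the PBS cultures received the same volume of PBS, and both were collected 24 h later. All 6 libraries come from that 1 line. The labels do not say whether the libraries of a group were separate cultures, so the p-values below are set against library-to-library spread alone, of which an unknown part may be technical.

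Mitosis is driven by cyclin B bound to CDK1, which CDC25 phosphatases switch on. The checkpoint proteins then hold CDC20 away from the anaphase-promoting complex until every kinetochore has caught microtubules, after which securin and cyclin B are destroyed, the sister chromatids part and the kinesins of the midzone set up cytokinesis. The RNAs of these proteins are made together late in the cell cycle and are low in resting cells, which is why their level is used as a readout of how many cells of a culture are dividing. Their promoters are held silent in resting cells by the DREAM complex and activated by MYBL2 and FOXM1, through a cell cycle homology element close to the start site, with the factor NF-Y bound at CCAAT boxes upstream of it. RNA levels are what was measured here, and no cell count or division rate is among these values.

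The promoters show what the genes share at the level of sequence, a property that did not enter the choice of the list. RefSeq promoter windows (GRCm38.p6, 250 bases before to 50 bases after the annotated start) were matched for 28 of the 34 genes. The other 6 are Ccna2, Cdc25c, Aurkb, Kif20a, Tpx2 and Foxm1. The windows of the 6 most abundant members that hold a cell cycle homology motif are printed 5′ to 3′ on the strand of the gene, with the homology motif (TTTGAA or TTCGAA) and the CCAAT motif in capitals, on either strand, so that TTCAAA and ATTGG mark matches on the opposite strand. In Ube2c a CCAAT on each strand overlap, and TTCGAA reads the same on both strands. The windows lie at chr11:99024140-99024439 for Top2a (minus strand), chr10:69352863-69353162 for Cdk1 (minus), chr5:30666636-30666935 for Cenpa (plus), chr4:118437294-118437593 for Cdc20 (minus), chr2:164769679-164769978 for Ube2c (plus) and chr9:70421505-70421804 for Ccnb2 (minus).
Top2a: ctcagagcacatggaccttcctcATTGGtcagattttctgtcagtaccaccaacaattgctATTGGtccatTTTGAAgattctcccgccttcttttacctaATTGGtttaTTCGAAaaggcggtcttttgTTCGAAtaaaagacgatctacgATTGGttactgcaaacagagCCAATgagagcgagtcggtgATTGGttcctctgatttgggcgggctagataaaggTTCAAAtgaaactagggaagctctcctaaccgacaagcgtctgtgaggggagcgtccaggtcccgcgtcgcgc
Cdk1: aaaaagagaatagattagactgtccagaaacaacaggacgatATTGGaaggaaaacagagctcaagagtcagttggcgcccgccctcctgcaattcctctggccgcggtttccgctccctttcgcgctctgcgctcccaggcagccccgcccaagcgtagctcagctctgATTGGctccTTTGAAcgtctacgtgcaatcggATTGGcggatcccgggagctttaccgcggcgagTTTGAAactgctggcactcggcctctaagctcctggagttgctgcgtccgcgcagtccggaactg
Cenpa: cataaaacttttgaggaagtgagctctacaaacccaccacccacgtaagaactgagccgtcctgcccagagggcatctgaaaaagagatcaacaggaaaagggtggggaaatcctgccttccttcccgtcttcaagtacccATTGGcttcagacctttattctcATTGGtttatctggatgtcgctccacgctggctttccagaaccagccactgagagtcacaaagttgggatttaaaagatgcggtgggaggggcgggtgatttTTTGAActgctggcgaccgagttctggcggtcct
Cdc20: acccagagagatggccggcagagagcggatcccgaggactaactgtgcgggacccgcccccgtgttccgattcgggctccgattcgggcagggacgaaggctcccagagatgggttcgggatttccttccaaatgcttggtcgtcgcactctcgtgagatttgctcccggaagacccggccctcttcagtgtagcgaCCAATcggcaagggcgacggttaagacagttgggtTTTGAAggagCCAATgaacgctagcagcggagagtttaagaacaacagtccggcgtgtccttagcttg
Ube2c: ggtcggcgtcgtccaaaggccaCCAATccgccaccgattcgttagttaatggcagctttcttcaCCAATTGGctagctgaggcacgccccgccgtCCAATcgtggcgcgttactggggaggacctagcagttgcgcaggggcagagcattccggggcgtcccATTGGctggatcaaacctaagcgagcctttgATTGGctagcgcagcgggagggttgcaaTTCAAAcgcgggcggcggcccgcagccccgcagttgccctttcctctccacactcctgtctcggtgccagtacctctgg
Ccnb2: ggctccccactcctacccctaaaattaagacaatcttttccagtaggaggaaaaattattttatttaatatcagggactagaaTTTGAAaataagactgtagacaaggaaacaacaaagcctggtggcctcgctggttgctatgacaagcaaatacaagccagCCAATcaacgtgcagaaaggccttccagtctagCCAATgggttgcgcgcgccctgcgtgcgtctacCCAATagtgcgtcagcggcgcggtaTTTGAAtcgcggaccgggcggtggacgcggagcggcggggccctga

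The cell cycle homology motif was found in 21 of the 28 windows (75%), against 19.2% of all 32851 windows of that length and 14.5% of the 12947 windows of tested genes. CCAAT was found in 20 of the 28 (71.4%), against 37.4% of all windows and 38.2% of those of tested genes. Both motifs stood together in 18 of the 28 (64.3%), against 7.53% of all windows and 5.94% of those of tested genes. In 19 of the 28 windows a homology motif began within 50 bases of the start on either side, a position seen in 5.31% of all windows. That distance was chosen after the positions were seen. Kif2c and Mki67 had their matches further upstream of the annotated start of the window. The Top2a window held 4 homology motifs, that of Cdk1 held 2 and that of Cdc20 held 1. A match is a description of the letters and not a bound site, and a window without one says nothing of the factor. The start of 11 of the 28 windows lay within 10 bases of the start of the most abundant transcript, and the last 30 bases of 23 windows were found in a transcript of the gene. That distance was 3867 bases for Kif2c, 221 for Pttg1, 204 for Mad2l1 and 148 for Bub3, so these windows describe another start.

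**Figure D1:**
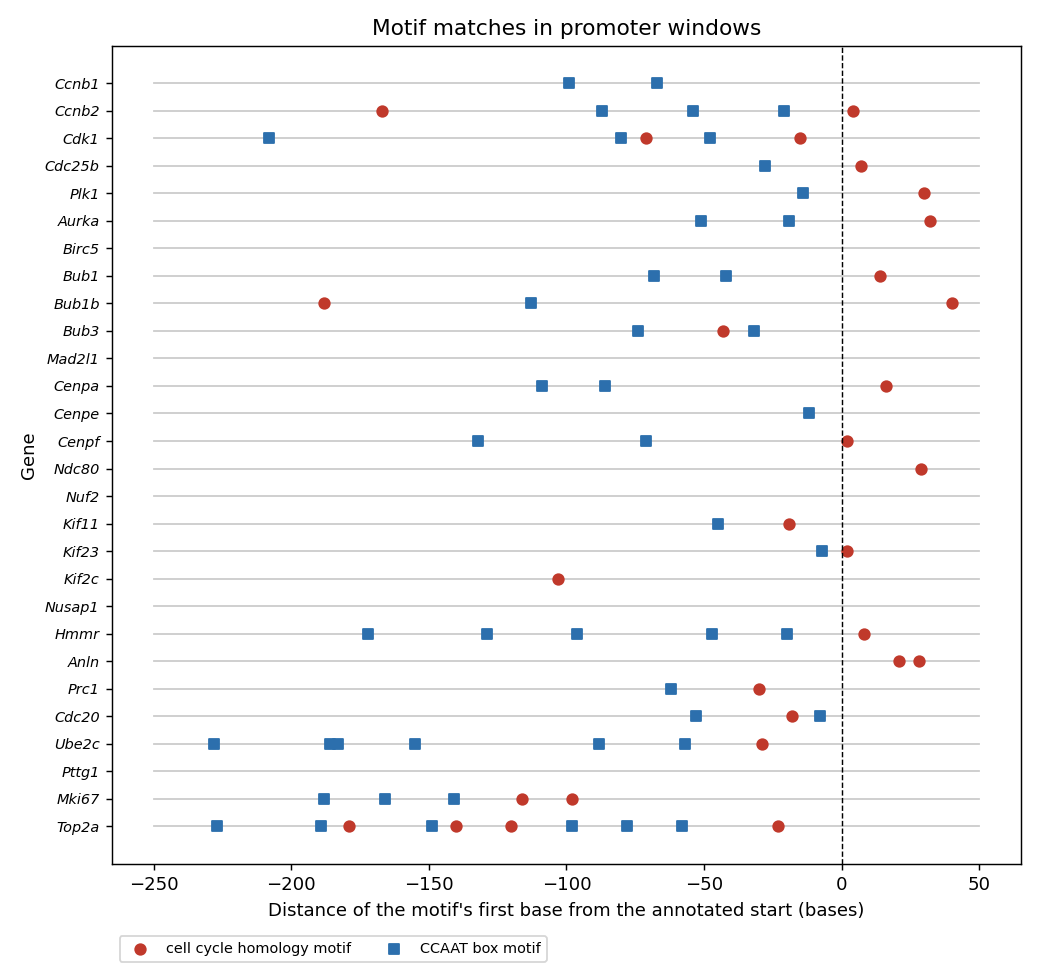
Positions of the cell cycle homology motif (circles) and the CCAAT motif (squares) in the promoter windows of 28 mitosis genes, as the distance of the motif's first base from the annotated start in bases (0 is the first transcribed base). Homology motifs gather around the start in 19 windows, CCAAT motifs lie mostly upstream of them, and Birc5, Mad2l1, Nuf2, Nusap1 and Pttg1 have no match to either motif.

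The CSE libraries held 12093009, 24050167 and 17075604 estimated counts, and the PBS libraries 13647897, 18082404 and 19486697. Per library, each of the 34 genes had between 324 and 32462 counts. Over all genes tested, edgeR's quasi-likelihood test called 1539 (11.4%) at an adjusted p under 0.05, with 581 (4.32%) higher and 958 (7.12%) lower in CSE. In bulk RNA, fewer cells of a kind and less RNA per cell cannot be told apart. Marker lists were read beside the label of a lung epithelial cell. The 5 epithelial markers summed to between 604 and 690 TPM (level per transcript length) in CSE libraries and between 1162 and 1280 TPM in PBS libraries, mostly Krt19. Of these 4 were tested, 0 were called higher and 3 were called lower in CSE. The 7 alveolar type 1 markers summed to between 847 and 914 TPM in CSE libraries and between 1387 and 1464 TPM in PBS libraries, and 6 of the 7 were lower in CSE. The 8 type 2 markers summed to between 31.2 and 37.6 TPM in CSE libraries and between 37.4 and 42.9 TPM in PBS libraries, nearly all of it Abca3, with Sftpa1 at 0 in all libraries. The 10 leukocyte markers summed to between 2.95 and 5.46 TPM in CSE libraries and between 3.14 and 6.38 TPM in PBS libraries, with Adgre1 and Cd52 at 0. The 7 endothelial markers summed to between 4.64 and 7.53 TPM in CSE libraries and between 5.63 and 8.10 TPM in PBS libraries, with Cdh5 at 0. The 5 ciliated and club cell markers summed to between 2.89 and 4.29 TPM in CSE libraries and between 4.27 and 5.41 TPM in PBS libraries. The 5 erythroid markers summed to between 3.61 and 6.75 TPM in CSE libraries and between 0.947 and 5.32 TPM in PBS libraries. The 7 fibroblast and mural markers summed to between 478 and 545 TPM in CSE libraries and between 869 and 1126 TPM in PBS libraries, mostly Dcn. Of these markers 4 were tested, 1 was called higher and 2 were called lower in CSE. The part of the marker genes in the mitosis results was not tested.

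The mitosis genes as a group showed little difference between CSE and PBS cells. Of the 34, 2 were higher in CSE (Nuf2 and Kif23), 0 were lower and 32 did not pass the test. By edgeR, DESeq2 and limma-voom alike 2 were called and 0 of these were lower, and 5 had an unadjusted p under 0.05, of which 1 (Prc1) was lower, while 26% of all genes tested had one. The share called over all genes was 11.4% by edgeR, 11.8% by DESeq2 and 11.6% by limma-voom, and among the 6445 tested genes in the same range of mean CPM (counts scaled to library size) it was 14.1%. The fitted log2 change, CSE over PBS, ran from −0.28 (0.825-fold, Mki67) to 0.32 (1.25-fold, Nuf2). Its median was 0.039, against 0.0056 over all genes tested. Sign was mixed, with 21 genes fitted above 0 and 13 below, against 50.9% above 0 over all genes tested. The median size of the change regardless of sign was 0.108 for the mitosis genes, against 0.157 over all genes tested and 0.12 over those in the same CPM range.

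The 95% interval of the change (from the quasi-likelihood F statistic) bounds what these libraries allow. For 32 of the 34 genes the whole interval lay within a 1.5-fold change in either direction, against 65.7% of all genes tested and 89.8% of those in the same CPM range. The exceptions were Mki67, whose interval ran from −0.67 to 0.12, and Cenpf, whose interval ran from −0.68 (0.624-fold) to 0.37. No upper bound in the list exceeded 0.49, which is 1.41-fold. The values in CPM overlapped between CSE and PBS libraries for 25 genes. Of the other 9, 7 were higher in every CSE library than in every PBS library (Ccnb2, Ccna2, Plk1, Bub1b, Nuf2, Kif23 and Kif2c) and 2 were lower (Prc1 and Foxm1), while 31.2% of all genes tested did not overlap, 15.1% with CSE higher and 16.2% with CSE lower. The TPM scale divides by transcript length and, unlike CPM here, carries no TMM scaling between libraries. On it 29 genes overlapped, Nuf2 was higher, and Ccnb1, Bub3, Prc1 and Foxm1 were lower in every CSE library, against 27.2% of all genes not overlapping. With an offset for effective transcript length and TMM scaling, the log2 change was −0.02 for Ccnb1, 0.03 for Bub3, −0.21 for Prc1 and −0.10 for Foxm1.

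**Figure D2:**
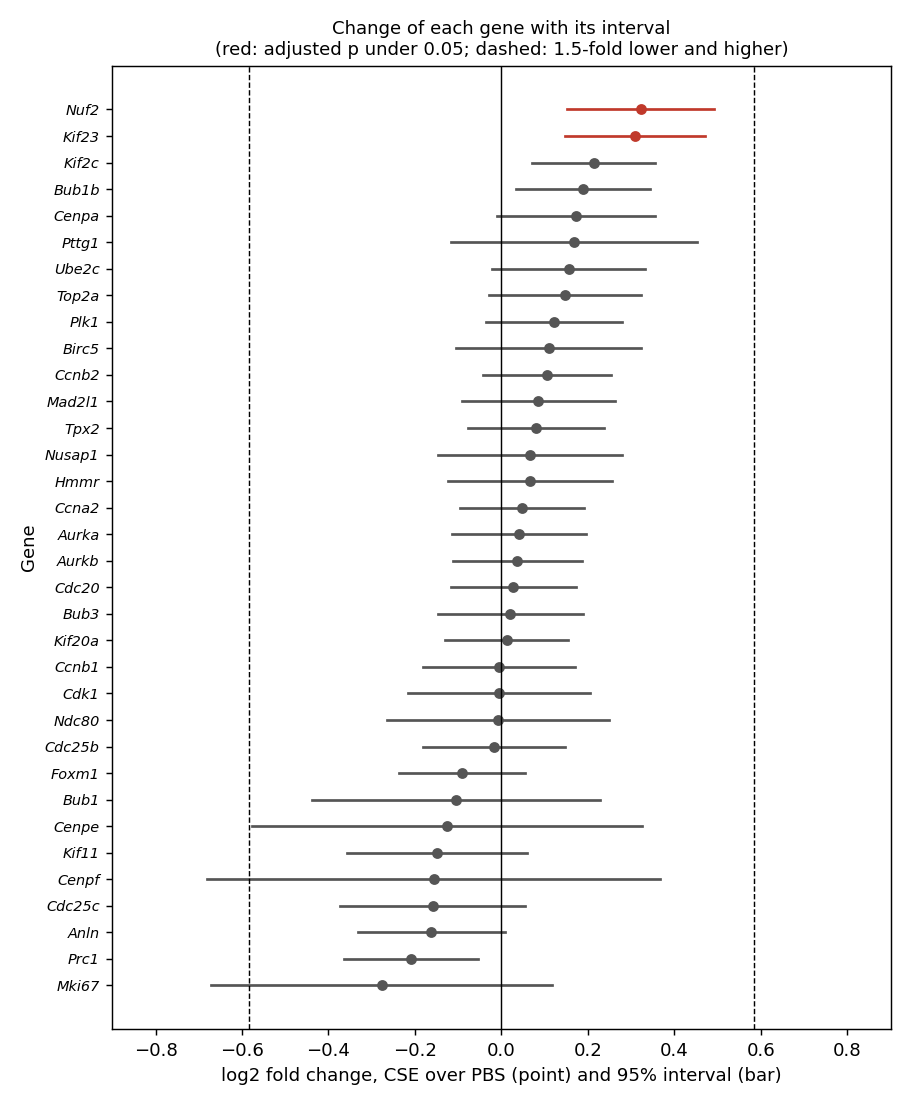
Log2 fold change of each of the 34 mitosis genes, CSE over PBS (points), with its 95% interval (bars), 3 libraries a group. Nuf2 and Kif23 (red) pass an adjusted p of 0.05, the bars of 32 genes stay between the dashed lines at a 1.5-fold change, and those of Mki67 and Cenpf cross the lower line.

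Summed over the 34 genes, TPM came to 4788, 4673 and 4639 in the CSE libraries (4700 ± 78.4, SD, n = 3) and to 4608, 4899 and 4874 in the PBS libraries (4794 ± 161, SD, n = 3). The groups overlapped, and the mean was 1.96% lower in CSE (percent difference −1.96). Summed CPM came to 6873, 6666 and 6969 in the CSE libraries (6836 ± 155, SD, n = 3) and to 6535, 6858 and 6596 in the PBS libraries (6663 ± 172, SD, n = 3), where the groups overlapped too and the mean was 2.59% higher in CSE. The direction of the sum thus differed between the 2 scales, which differ in library scaling as well as in length. The mean log2 CPM of the 34 genes, set against the PBS mean of each gene, was 0.034, −0.0035 and 0.084 in the CSE libraries and −0.049, 0.080 and −0.031 in the PBS libraries, so that the highest CSE and the highest PBS library stood about level.

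**Figure D3:**
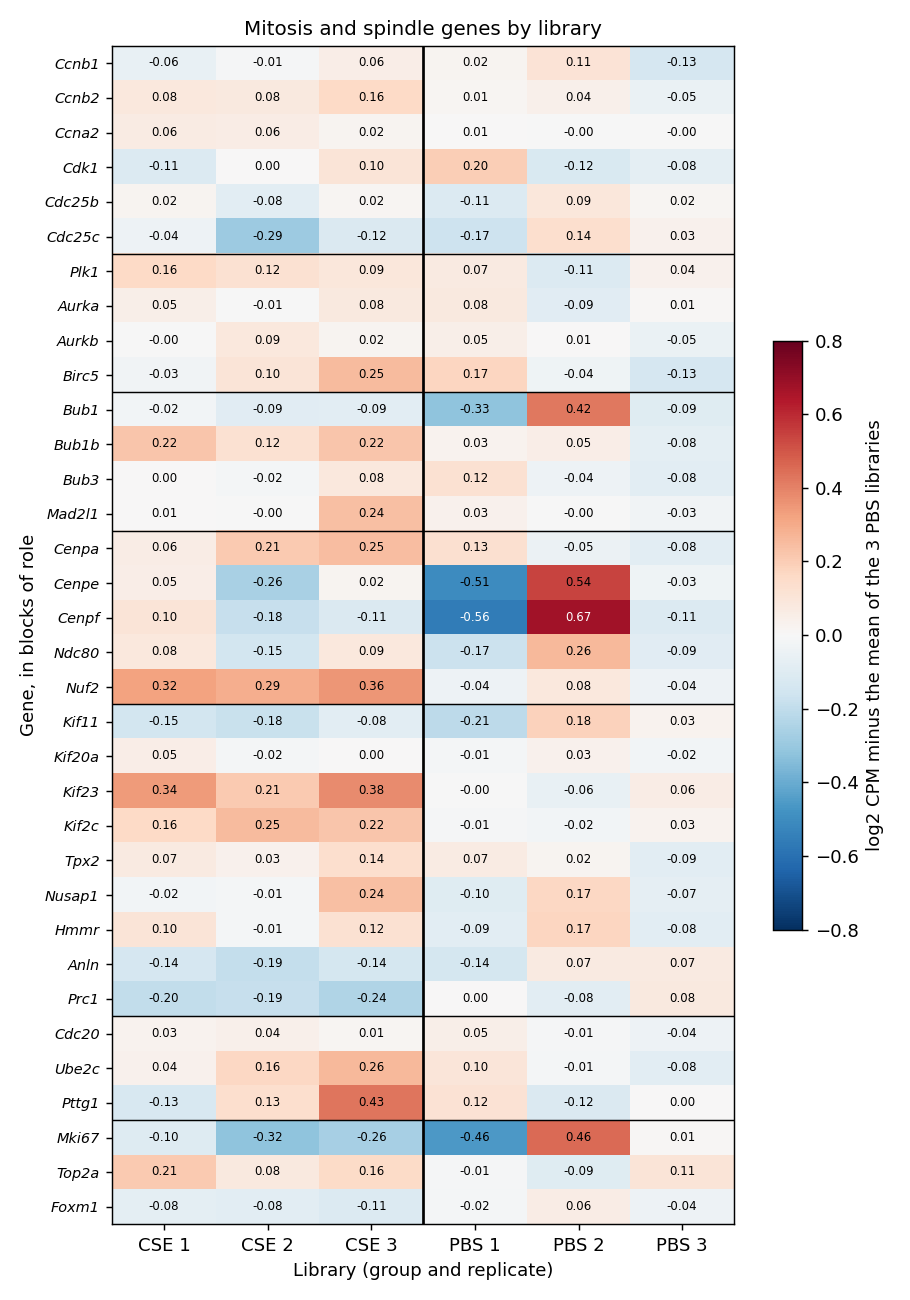
Log2 CPM of each of the 34 mitosis genes in each library, minus the mean of that gene over the 3 PBS libraries (rows are genes in blocks of role, columns are libraries, colour and number give the difference). Nuf2 and Kif23 are positive in all 3 CSE libraries, Prc1 is negative in all 3, and the 6 strongest colours are those of Cenpf, Cenpe and Mki67 in PBS 1 and PBS 2, followed by Pttg1 in CSE 3 and Bub1 in PBS 2.

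Around CDK1, the kinase that starts mitosis, none of 6 genes passed the test, the median log2 change was −0.01 and the range was −0.16 to 0.11. Cdk1 (GRCm38, chr10:69335146-69352938, minus strand) had 296, 319 and 342 CPM in the CSE libraries and 365, 293 and 302 CPM in the PBS libraries, a log2 change of −0.01 ± 0.10 (SE) with an adjusted p of 0.975. PBS 1 was the highest of the 6 libraries and PBS 2 the lowest. Ccnb1, cyclin B1, had 288, 298 and 311 CPM in the CSE libraries and 304, 324 and 273 CPM in the PBS libraries, a log2 change of −0.01 ± 0.08. The CSE values lay inside the PBS range. Of the words of 31 bases in its main transcript, 46.9% also occur in its pseudogene Ccnb1-ps, so that its count depends on how kallisto shares reads between the copies. Ccnb2, cyclin B2, had 209.9, 209 and 221 CPM in the CSE libraries and 200, 203 and 191 CPM in the PBS libraries, a log2 change of 0.11 ± 0.07 with an adjusted p of 0.353. Every CSE library stood above every PBS library, by a margin smaller than the range within either group. Ccna2, cyclin A2 of S phase and mitotic entry, had the narrowest PBS range of the list, with 427, 425 and 415 CPM in the CSE libraries and 410.2, 408 and 408 CPM in the PBS libraries, a log2 change of 0.05 ± 0.06. Of the phosphatases that activate CDK1, Cdc25b changed by a fitted −0.02 ± 0.07 on the log2 scale. Cdc25c had 51.3, 43.0 and 48.5 CPM in the CSE libraries and 46.9, 57.9 and 53.9 CPM in the PBS libraries, a fitted −0.16 ± 0.10 with an adjusted p of 0.337.

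The mitotic kinases and the passenger complex, which correct faulty attachments of chromosomes, held 4 genes, none past the test, with fitted log2 changes between 0.04 and 0.12. Plk1, the polo-like kinase of mitotic entry and spindle poles, had 119, 115 and 113 CPM in the CSE libraries and 112, 98.4 and 109 CPM in the PBS libraries, a log2 change of 0.12 ± 0.07 with an adjusted p of 0.317. The groups did not overlap in CPM and did overlap in TPM. Birc5, which encodes survivin, had 141, 155 and 172 CPM in the CSE libraries and 162, 141 and 132 CPM in the PBS libraries, a log2 change of 0.11 ± 0.10. Each group spanned a wider range than the difference of the means. Aurka, the kinase of the spindle poles, and Aurkb, the kinase of the passenger complex, had log2 changes of 0.04 ± 0.07 each, with intervals of −0.11 to 0.20 and of −0.11 to 0.19.

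The spindle checkpoint, whose proteins delay anaphase, had 4 genes and none past the test. Bub1b, which encodes BUBR1, had 178, 166 and 178 CPM in the CSE libraries and 156, 158 and 145 CPM in the PBS libraries. All 3 CSE libraries were higher, by a log2 change of 0.19 ± 0.07, with an unadjusted p of 0.0217 and an adjusted p of 0.115. Bub3 had 191, 188 and 201 CPM in the CSE libraries and 207, 185 and 179.7 CPM in the PBS libraries, a log2 change of 0.02 ± 0.08, with overlapping groups. On the TPM scale Bub3 was lower in every CSE library, at 145 ± 2.40 TPM in CSE and 149.9 ± 2.99 TPM in PBS (SD, n = 3 each). Mad2l1, which encodes MAD2, had a log2 change of 0.09 ± 0.08. Its retained-intron transcript Mad2l1-203 took 55.0 ± 1.47% of the gene's TPM in CSE and 58.2 ± 4.68% in PBS (SD, n = 3 each). Bub1, the kinase that recruits the others to kinetochores, had 78.3, 75.0 and 75.0 CPM in the CSE libraries and 63.6, 107 and 74.6 CPM in the PBS libraries, a log2 change of −0.11 ± 0.15. Its CSE libraries were close together and its PBS libraries were not, with PBS 2 at 1.68 times PBS 1.

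Among centromere and kinetochore genes, 1 of 5 was called. Nuf2 (ENSMUSG00000026683.14, chr1:169497934-169531464, minus strand), a subunit of the NDC80 complex that binds microtubules at the kinetochore, had 40.3, 39.4 and 41.2 CPM in the CSE libraries and 31.2, 34.1 and 31.2 CPM in the PBS libraries. Every CSE library was above every PBS library, and the log2 change was 0.32 ± 0.08 (1.25-fold, interval 1.11 to 1.41) with an edgeR adjusted p of 0.0212. On the TPM scale it had 34.5, 31.9 and 32.0 TPM in CSE libraries and 25.6, 30.1 and 28.9 TPM in PBS libraries. These did not overlap either, and limma on log2(TPM + 1) gave 0.21 with an adjusted p of 0.216. The call was lost with an offset for effective transcript length (adjusted p = 0.056) and when any of CSE 1 (0.0689), CSE 2 (0.0731), CSE 3 (0.0915) or PBS 3 (0.077) was left out. Its partner in the complex, Ndc80, had 50.5, 43.1 and 50.6 CPM in the CSE libraries and 42.3, 57.1 and 44.8 CPM in the PBS libraries. The PBS range enclosed the CSE range, and the log2 change was −0.01 ± 0.12. Cenpa, the histone variant that marks centromeres, had 226, 251 and 257 CPM in the CSE libraries and 237, 209.8 and 205 CPM in the PBS libraries, a log2 change of 0.17 ± 0.08 with an adjusted p of 0.222. PBS 1 stood above CSE 1, so the groups overlapped. Of the TPM of Cenpa, the transcript Cenpa-202, annotated as nonsense-mediated decay, took 46.2 ± 2.47% in CSE and 48.1 ± 2.31% in PBS. The coding transcript Cenpa-205 took 30.3 ± 1.61% in CSE and 28.7 ± 1.39% in PBS (SD, n = 3 each). Cenpe, a kinesin that carries chromosomes to the spindle equator, had 95.8, 77.1 and 93.6 CPM in the CSE libraries and 64.9, 134 and 90.0 CPM in the PBS libraries, a log2 change of −0.13 ± 0.20. Cenpf, a large kinetochore protein of late cell cycle, had 150.1, 123 and 129 CPM in the CSE libraries and 94.7, 223 and 129 CPM in the PBS libraries, a log2 change of −0.16 ± 0.24. For both genes PBS 1 was the lowest and PBS 2 the highest of all 6 libraries.

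Among kinesins and the genes of spindle and cytokinesis, 1 of 9 was called and the fitted log2 changes ran from −0.21 to 0.31. Kif23 (ENSMUSG00000032254.10, chr9:61915905-61946774, minus strand) encodes the kinesin of centralspindlin, which marks the midzone for cytokinesis. It had 165, 149.9 and 169 CPM in the CSE libraries and 129, 125 and 136 CPM in the PBS libraries. Every CSE library was higher, and the log2 change was 0.31 ± 0.07 (1.24-fold, interval 1.11 to 1.39) with an edgeR adjusted p of 0.0205. The call was lost without CSE 1 (0.085) or CSE 3 (0.105). On the TPM scale the groups overlapped, with 139, 129 and 120.5 TPM in the CSE libraries and 112, 136 and 135 TPM in the PBS libraries. The mean was 129.7 ± 9.51 TPM in CSE and 127 ± 13.7 TPM in PBS (SD, n = 3 each), and an offset for effective length gave a log2 change of 0.11 with an adjusted p of 0.438. The mean shares of its transcripts Kif23-201 and Kif23-208 differed, while the libraries of the groups overlapped in both, and no test was run on shares. The full-length coding transcript Kif23-201 (3398 bases) took 48.3 ± 4.94% of the gene's TPM in CSE and 41.3 ± 4.40% in PBS, and the retained-intron transcript Kif23-208 (524 bases) took 29.5 ± 3.39% in CSE and 38.1 ± 6.55% in PBS (SD, n = 3 each). The level of Kif23-201 itself was 65.2, 57.1 and 64.8 TPM in the CSE libraries and 50.5, 49.7 and 56.6 TPM in the PBS libraries, which do not overlap. The mean effective length of Kif23 was 1827 bases in CSE and 1589 bases in PBS.

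Kif2c, which encodes the microtubule depolymerase MCAK, had 104, 110.5 and 108 CPM in the CSE libraries and 92.1, 91.4 and 94.6 CPM in the PBS libraries. The groups did not overlap in CPM and did overlap in TPM. The log2 change was 0.21 ± 0.06, with an unadjusted p of 0.00706 and an adjusted p of 0.0575. It passed once the GC and length trend of each library was removed (adjusted p = 0.0299). The adjusted p was 0.101 with the effective length offset and up to 0.227 with a library left out. By limma on log2(TPM + 1) the change was 0.12 with an adjusted p of 0.434. Prc1, which bundles the microtubules of the midzone, had 232, 233 and 225 CPM in the CSE libraries and 266, 251 and 281 CPM in the PBS libraries. Every CSE library was lower, by a fitted −0.21 ± 0.07, with an unadjusted p of 0.0128 and an adjusted p of 0.0841. It passed without PBS 2 (adjusted p = 0.0401) and with the GC and length trend removed (0.0414), and the adjusted p was 0.282 without CSE 3. Of the 31-base words of its main transcript, 29.1% also occur in transcripts of other genes, of which Rccd1 shares the most. Anln, the anillin of the contractile ring, had 202, 195 and 201 CPM in the CSE libraries and 202, 234 and 234 CPM in the PBS libraries, a fitted log2 change of −0.16 ± 0.08 with an adjusted p of 0.216. PBS 1 lay among the CSE values. Kif20a, a kinesin of the midzone, had 177, 169 and 171 CPM in the CSE libraries and 169, 175 and 169 CPM in the PBS libraries, a log2 change of 0.01 ± 0.06. Kif11, the motor that pushes spindle poles apart, had 75.1, 73.5 and 78.7 CPM in the CSE libraries and 72.0, 94.6 and 85.0 CPM in the PBS libraries, a fitted −0.15 ± 0.09. The remaining 3 overlapped between groups: Tpx2, which activates Aurora A on the spindle, and the microtubule-binding Nusap1 and Hmmr had log2 changes of 0.08 ± 0.07, 0.07 ± 0.10 and 0.07 ± 0.09.

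The 3 genes of anaphase onset were all fitted above 0 and none passed the test. Ube2c, the E2 enzyme of the anaphase-promoting complex, had 128, 139 and 149 CPM in the CSE libraries and 133, 123 and 117 CPM in the PBS libraries, a log2 change of 0.16 ± 0.08 with an adjusted p of 0.254. CSE 1 lay inside the PBS range. Cdc20, the activator of the complex, had 271, 273 and 268 CPM in the CSE libraries and 274, 264 and 258 CPM in the PBS libraries, a log2 change of 0.03 ± 0.07. Pttg1, securin, had 26.9, 32.2 and 39.4 CPM in the CSE libraries and 31.8, 27.0 and 29.4 CPM in the PBS libraries, a log2 change of 0.17 ± 0.13. It was the gene with the widest CSE range in the list, with CSE 3 at 1.47 times CSE 1.

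Of the remaining 3, Top2a, the topoisomerase that untangles sister chromatids, was the most abundant gene of the list. It had 1486, 1357 and 1431 CPM in the CSE libraries and 1274, 1202 and 1382 CPM in the PBS libraries, and 525 ± 35.2 TPM in CSE and 503 ± 48.7 TPM in PBS (SD, n = 3 each). PBS 3 stood above CSE 2, and the log2 change was 0.15 ± 0.08 with an adjusted p of 0.274. Foxm1, the activator of many of these promoters, had 307, 306 and 299.8 CPM in the CSE libraries and 320.3, 337 and 315 CPM in the PBS libraries. Every CSE library was lower, by a fitted −0.09 ± 0.07 with an adjusted p of 0.42, and its level was 105 ± 5.56 TPM in CSE and 119 ± 6.89 TPM in PBS (SD, n = 3 each). Mki67 (chr7:135689784-135716361, minus strand), which coats mitotic chromosomes and encodes the Ki-67 antigen used to count cycling cells, had 287, 247 and 257 CPM in the CSE libraries and 224, 423 and 309.9 CPM in the PBS libraries. The lowest and the highest value were both from PBS, and the log2 change was −0.28 ± 0.18 with an adjusted p of 0.361. Without PBS 1 it was −0.47 with an edgeR adjusted p of 0.0299, and without PBS 2 it was −0.02. With the GC and length trend removed it was −0.07. Without the filter on low counts it was −0.27 with an edgeR adjusted p of 0.0261. In that fit the SE was 0.088 for each of Mki67, Cenpf and Ccna2, against 0.178, 0.237 and 0.0645 in the reported fit. The SE there thus hardly followed the spread of the single gene.

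**Figure D4:**
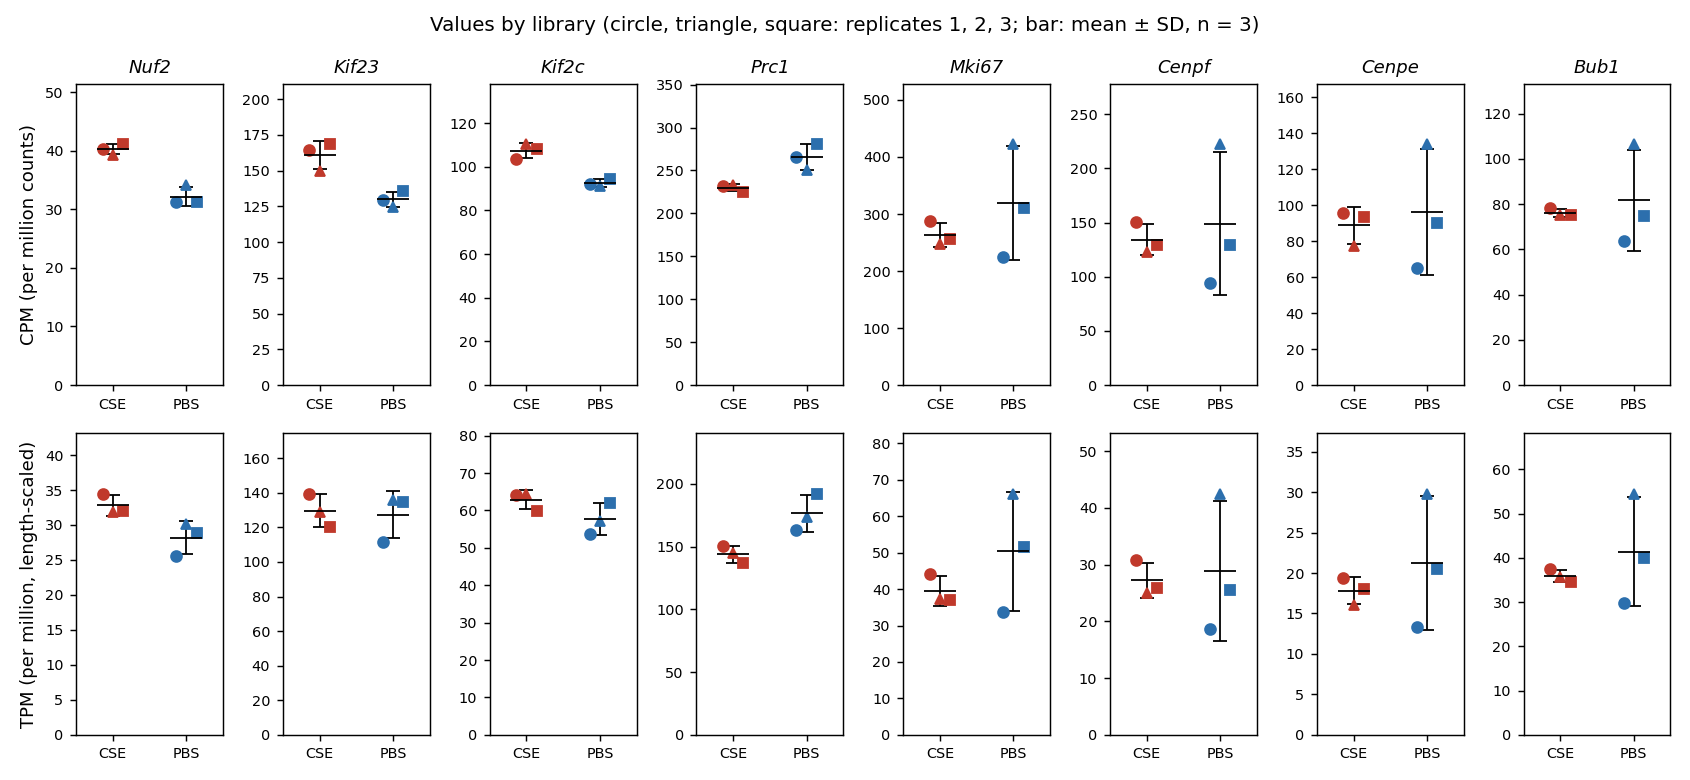
CPM (top) and TPM (bottom) of 8 mitosis genes in each CSE and PBS library (circle, triangle and square are replicates 1, 2 and 3, bars give mean and SD). CSE stands above PBS in CPM for Nuf2, Kif23 and Kif2c and below it for Prc1, Kif23 overlaps in TPM, and Mki67, Cenpf, Cenpe and Bub1 have a wide PBS range around a narrow CSE range.

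The widest differences between libraries of a group were found among the PBS libraries. The highest PBS library was at least 1.5 times the lowest for Cenpf (2.35 times), Cenpe (2.07), Mki67 (1.89) and Bub1 (1.68), and always PBS 2 over PBS 1. Among the 6445 genes in the same CPM range these ranked 6, 16, 40 and 78 for the width of the PBS range, and 3.12% of those genes reached 1.5 times. None of the 34 reached that ratio in CSE. For 28 genes the PBS libraries stayed within 1.25 times of each other. The SD of log2 CPM was larger in PBS for 26 of the 34 genes, and larger in CSE for others such as Pttg1 (log2 range 0.55 in CSE and 0.23 in PBS) and Mad2l1 (0.24 in CSE and 0.06 in PBS). The median log2 range over the list was 0.104 in CSE and 0.1997 in PBS, against 0.129 in CSE and 0.201 in PBS over the 6445 genes. Cenpf, Mki67 and Cenpe have the longest transcripts of the list (11130, 10061 and 7910 bases), and Bub1 has 3421 bases. The 7 members of 4000 bases or more stood at a median of −0.21, 0.18 and 0.01 in PBS 1, 2 and 3, while the 2819 tested genes whose transcripts average 4000 bases or more, a different measure of length, stood at −0.05, −0.02 and 0.07. The fitted change of Cenpf, Cenpe and Bub1 turned with the library left out: it was −0.39, −0.33 and −0.25 without PBS 1, and 0.25, 0.18 and 0.13 without PBS 2. With the GC and length trend removed, the log2 change was 0.02 for Cenpf, 0.04 for Cenpe and −0.10 for Bub1, and all 34 intervals lay within 1.5-fold. Why these genes differed between PBS 1 and PBS 2 was not tested.

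**Figure D5:**
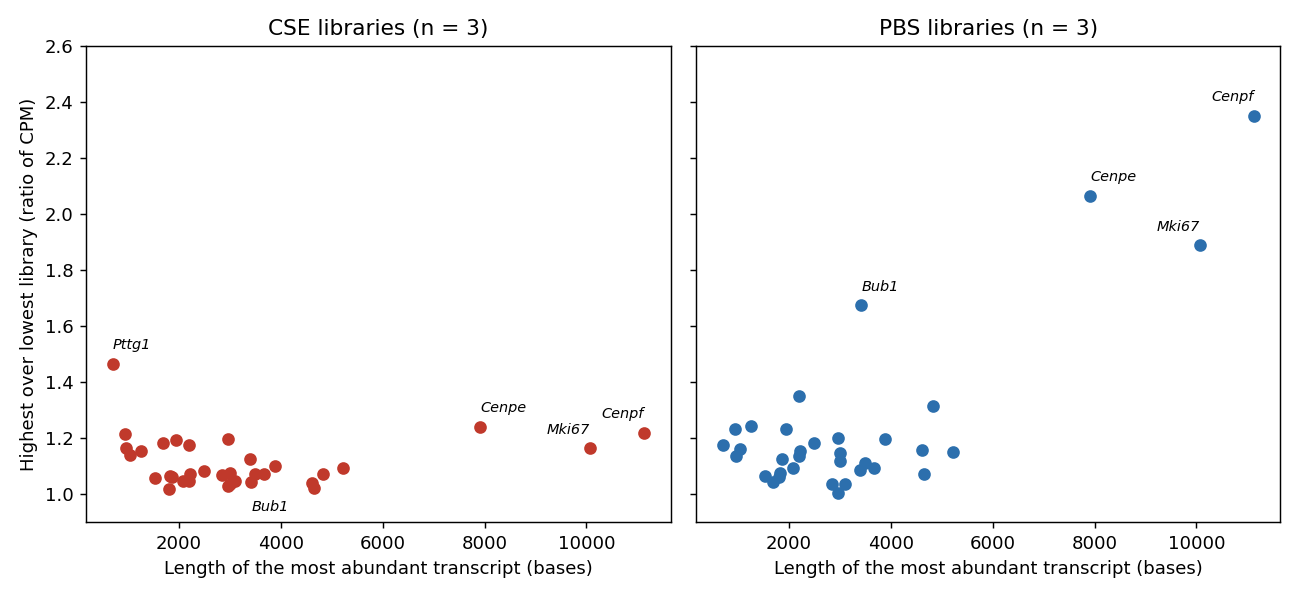
Ratio of the highest to the lowest library in CPM, within the 3 CSE libraries (left) and the 3 PBS libraries (right), against the length of the most abundant transcript in bases, for 34 mitosis genes. Cenpf, Cenpe, Mki67 and Bub1 lie at 1.68 or more in PBS, and the highest CSE ratio is 1.47, for Pttg1.

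Other genes of the pathway were read from lists of the same fit. In 5 lists of further mitotic genes (kinetochore, checkpoint and kinases, kinesins and cytokinesis, condensin and cohesin, anaphase-promoting complex) 121 genes were tested, 0 were higher, 1 was lower and 118 had an interval within 1.5-fold. DESeq2 and limma-voom gave the same counts in each direction, and 10 of the 121 had an unadjusted p under 0.05 in edgeR, against 26% of all genes tested. The lower gene was Pkmyt1, a kinase that keeps CDK1 inactive, at 68.1, 65.3 and 58.5 TPM in the CSE libraries and 76.9, 102 and 85.6 TPM in the PBS libraries. The groups did not overlap, the log2 change was −0.38 ± 0.09 and the edgeR adjusted p was 0.0229, and the call was lost without CSE 1 (0.0575), CSE 2 (0.0702) or CSE 3 (0.111) and with the GC and length trend removed (log2 change −0.23, adjusted p 0.076). In the kinetochore list, which had 0 of 32 called by any of these tools and 2 with an unadjusted p under 0.05, the smallest p-values were those of Cenpw (log2 change 0.32 ± 0.10, adjusted p 0.0756) and Pmf1 (0.21 ± 0.08, 0.144). Among the kinesins and cytokinesis genes, with 0 of 32 called and 3 with an unadjusted p under 0.05, they were those of Kif14 (−0.21 ± 0.08, 0.136) and Ckap2 (0.17 ± 0.07, 0.159). Among condensin and cohesin genes, with 0 of 21 called and 0 with an unadjusted p under 0.05, they were those of Ncapd3 and Sgo2a (adjusted p 0.316 and 0.232), and among the 17 of the anaphase-promoting complex, with 0 called and 1 with an unadjusted p under 0.05, those of Anapc15 and Cdc26 (0.149 and 0.236). DNA replication, the step before mitosis, had 0 of 25 genes called by edgeR, DESeq2 or limma-voom, 1 with an unadjusted p under 0.05 and a median log2 change of 0.03, with Tk1 at 0.17 ± 0.07 (adjusted p 0.135) and Mcm6 at 0.15 ± 0.07 (0.209).

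The last 3 lists hold CDK inhibitors, genes of G1 and transcription regulators, and their counts stand beside 11.4% called over all genes tested. Of 14 CDK inhibitors and growth-arrest genes, 2 were higher and 2 lower by edgeR. In this list 4 had an unadjusted p under 0.05 in edgeR, against 26% of all genes tested. Cdkn1a, which encodes the inhibitor p21, had 81.7, 78.9 and 73.9 TPM in the CSE libraries and 62.7, 59.7 and 65.7 TPM in the PBS libraries. The groups did not overlap, and the log2 change was 0.40 ± 0.07 with an adjusted p of 0.00303. Ccng1, cyclin G1, was higher by 0.29 ± 0.08 (adjusted p 0.037), while Cdkn2c, which encodes p18, was lower at −0.31 ± 0.09 (0.044) and Gadd45b was lower at −0.31 ± 0.07 (0.0186). Of 9 G1 cyclins, kinases and regulators, 1 was higher and 1 lower by edgeR, and 5 had an unadjusted p under 0.05. The interval lay within 1.5-fold for 7 of the 9, against 65.7% of all genes tested. Ccne1, cyclin E1, had 31.4, 33.4 and 30.9 TPM in the CSE libraries and 23.8, 25.2 and 22.8 TPM in the PBS libraries, a log2 change of 0.48 ± 0.09 with an adjusted p of 0.00554. Ccnd1, cyclin D1, had 494, 476 and 429 TPM in the CSE libraries and 781, 611 and 805 TPM in the PBS libraries, a log2 change of −0.57 ± 0.11 with an adjusted p of 0.00543. Both pairs of groups stood apart. Of 21 transcription regulators of cell cycle genes, 0 were higher and 2 were lower by edgeR and by limma-voom, and 3 had an unadjusted p under 0.05 in edgeR. They were E2f2 at −0.37 ± 0.10 (adjusted p 0.0324) and E2f7 at −0.34 ± 0.08 (0.0228), and DESeq2 called Tfdp2 lower besides (−0.31, 0.0287). Cdkn1a, Ccne1 and Ccnd1 stayed under an adjusted p of 0.05 in every alternative listed for the genes of these lists, with highest values of 0.0434, 0.0368 and 0.0363. The other 5 lost the call when single libraries were left out, with adjusted p-values of up to 0.141 for Ccng1, 0.159 for Cdkn2c, 0.124 for E2f2, 0.113 for E2f7 and 0.105 for Gadd45b. E2f2 also lost it with the GC and length trend removed (log2 change −0.21, adjusted p 0.149), and Ccng1 by limma on log2(TPM + 1) (0.20, 0.261).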

How the data were processed

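Each of the 6 files the authors deposited gives 118489 transcripts with their estimated count and TPM, in columns named in the style of kallisto, per the file headers. The deposited TPM values are estimated counts per effective length brought to a common sum. GRCm38, DESeq2 1.40.2, FastQC 0.12.1, fastp 0.20.1 and kallisto 0.46.2 are named in the submitters' processing notes. Strand setting and index: not given in the sources used here. The extraction label names lung tissue, although the samples are labelled as the cell line.

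Transcripts were matched to GENCODE vM21 (116816, or 98.6%), and the 1673 without a match, with between 0.638% and 0.664% of the counts, were left out. Values were summed over each of 36047 genes and counts were rounded. The 2 groups were compared with the quasi-likelihood test of edgeR, two-sided (TMM factors between 0.976 and 1.03, filterByExpr with a minimum count of 10, Benjamini-Hochberg adjustment over 13451 genes, biological coefficient of variation 9.17%). CPM values carry the TMM scaling. Libraries of a group were not duplicates, with chi-square per degree of freedom of at least 6.00. Library totals set 3 counts at between 0.125 and 0.248 CPM. Shared sequence was measured in words of 31 bases of the most abundant transcript, as the share found in transcripts of any other gene on either strand.

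The genes, the lists and the tests were chosen with earlier results of these data known. All 34 genes are named. Values of each library are given for called genes, the 12 of smallest p, the 4 of largest and smallest change, and Mki67, Top2a, Ccnb1, Cdk1, Plk1, Foxm1, Birc5 and Bub3. Those of Ccna2, Bub1, Cenpe, Cenpf, Kif11, Cdc20 and Pttg1 were added after their values were seen. Some list genes are not reported here. In other lists, called genes or else the 2 of smallest p are named, and in the kinase list, where Pkmyt1 was called, Pkmyt1 alone. Other settings were DESeq2, limma-voom, library-size or RLE scaling, no filter, a mean of at least 5 CPM, limma on log2(TPM + 1) and log2(TPM + 0.1), an effective length offset, removal of GC and length trends (loess, span 0.5), the replicate block and each library left out. The procedure was tested on simulated counts. Versions were Python 3.11.15 with matplotlib 3.10.9 and pandas 2.3.3, and R 4.3.3 with DESeq2 1.42.0, limma 3.58.1 and edgeR 4.0.16.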

Additional observations from a re-analysis of the deposited data

How the results depend on the processing

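Of the values of single mitosis genes under the alternatives, 559 kept their side of the threshold, 14 lost a call and 5 gained one. The sign of the fitted change differed from that of the reported fit in 48 of these values, in 17 genes, of which 0 were called with either sign. The 2 calls among the 34 genes became 0 by limma on log2(TPM + 1) and on log2(TPM + 0.1), 0 with the effective length offset, 0 with the replicate block and 4 with the GC and length trend removed (3 higher, 1 lower). Leaving out each library in turn gave between 0 and 3 calls, with 0 without CSE 1 or CSE 3 and 1 without CSE 2 or PBS 3. The count of intervals within 1.5-fold was between 31 and 34 in these fits. The median change of the 34 genes stayed between 0.0138 and 0.0835. It was −0.028 on the TPM scales, where the median over all genes was −0.061 and −0.065. The log2 ratio of summed TPM was −0.0285, against 0.0369 from summed CPM and 0.0382 from the mean log2 CPM. Over all genes, the 1539 calls became 998 and 985 on the TPM scales (224 and 220 higher, 774 and 765 lower) and 1022 with the block. They ran from 837 to 1941 with a library left out, and fell to 963 without PBS 3, 859 without CSE 2 and 837 without CSE 3. The split of higher and lower calls was 919 and 863 with the GC and length trend removed, 1052 and 1145 without the filter, and 967 and 974 without PBS 1. In the other cell cycle lists, 9 calls (3 higher, 6 lower) became 4 with the block and between 3 and 10 with a library left out, with 4 without PBS 3, 3 without CSE 1 or CSE 3 and 5 without CSE 2. The labels do not say whether the replicate numbers pair the libraries. Deviations of same-numbered libraries correlated at −0.124, 0.00608 and −0.0594 across genes, and 1 of 3 CSE libraries correlated best with its own number. These correlations showed no clear pairing and cannot exclude it, because each deviation is from a mean of only 3 libraries.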

Other observations

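The difference between PBS 2 and PBS 1 seen for Cenpf, Cenpe, Mki67 and Bub1 also showed in other mitotic genes of the lists, chosen after the values were seen from those of widest PBS range. Kif20b, a kinesin of cytokinesis, had 126, 106 and 124 CPM in the CSE libraries and 86.1, 192 and 108 CPM in the PBS libraries, and ranked 11 of 6445 genes for its PBS range. The cohesin and condensin genes Smc3 (1.62 times), Esco2 (1.61) and Smc4 (1.59), and the kinetochore gene Knl1 (1.52), had ratios of PBS 2 to PBS 1 of at least 1.5. Ttk, the kinase at the head of the checkpoint, and Ckap5, a microtubule polymerase, had ratios of 1.49 and 1.42. In each of these genes PBS 2 was the highest and PBS 1 the lowest PBS library. The GC content of their transcripts lay between 37.6% (Kif20b) and 43.7% (Ckap5), while the median over the 6445 genes was 49.9%. The part of GC content in these differences was not tested.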
